A study of Caenorhabditis elegans with 12 samples.

Results

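Early embryos of the nematode Caenorhabditis elegans that lack LIN-65 were compared, gene by gene, with embryos that lack MET-2, to describe which genes depend unequally on the cofactor and on the methyltransferase it assists. The genes were the union of 3 deposited tables, each gene counted once, which gave 2949 of 2949 genes. Of these, 973 were in the table for lin-65, 1941 in that for met-2 and 2638 in that for the double mutant. The strains were the N2 Bristol wild type, the single mutant met-2(n4256) on chromosome III, a second single mutant, lin-65(delta) on chromosome I, and the double mutant carrying both alleles. Every strain had 3 libraries described as independent biological replicates. All strains were grown at 20 °C, and the labels name no allele or agent that all groups shared. Total RNA was depleted of ribosomal RNA before sequencing. Each sample pooled whole embryos of about 1 to 300 cells, and worms were grown for 60 to 65 h depending on the strain, so strain cannot be told apart from growth time or embryo age. In such bulk RNA, fewer cells of a type cannot be told apart from less RNA per cell.

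MET-2 is the worm relative of the mammalian SETDB1 methyltransferases and places methyl groups on lysine 9 of histone H3, mainly as mono- and dimethylation. Chromatin with this mark is generally silent and in embryos much of it lies at the nuclear periphery. LIN-65 is a largely unstructured protein that binds MET-2 and is needed for MET-2 to gather in nuclear foci. A direct comparison of both single mutants asks whether losing the cofactor has the same effect on RNA as losing the enzyme.

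The deposited values are log2 ratios for 9 mutant libraries, and a value of 1 is 2-fold. No header names their baseline. It was read from the values as the N2 wild type, and it cancels from every difference between both mutants given here. The N2 libraries have no values of their own, so a level above or below 0 is a description without a test. The files hold no counts, so the sequencing depth is unknown. The mutated genes followed their labels. The lin-65 level was -0.26, -0.21 and -0.18 in the met-2 libraries and -5.90, -5.97 and -5.78 in the lin-65 libraries. The met-2 level was -2.32, -2.39 and -2.35 in the met-2 libraries and 0.07, -0.08 and -0.07 in the lin-65 libraries. In the double mutant lin-65 averaged -6.04 ± 0.21 and met-2 averaged -2.76 ± 0.06 (SD, n = 3).

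Replicate 1 of met-2 stood apart. Its median over all genes was 1.53, against 1.06 and 1.08 in the other met-2 libraries, 0.77 to 0.97 in the lin-65 libraries and 1.47 to 1.49 in the double mutant. Per gene, the median SD was 0.307 in met-2, 0.122 in met-2 without replicate 1, and 0.183 in lin-65. Results are therefore given with and without that library.

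Most genes had a lower level in lin-65 embryos than in met-2 embryos, while a smaller group was higher in lin-65. Of 2949 genes, 124 were higher in lin-65 (4.2%) and 960 were lower (32.6%) at a Benjamini-Hochberg adjusted p of 0.05 in limma. Together they made 36.8% of genes, and they include met-2 and lin-65 themselves. Without met-2 replicate 1, 151 were higher (5.12%) and 742 lower (25.2%), together 30.3%, and 124 higher and 724 lower genes were called both ways. Without lin-65 replicate 1 the lower count was 575, and without lin-65 replicate 3 it was 621. The lin-65 mean lay below the met-2 mean in 2547 genes (86.4%), or in 2289 genes (77.6%) without met-2 replicate 1.

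The median difference, lin-65 minus met-2, was -0.42 log2 units, a 1.33-fold lower value in lin-65. It was -0.26 without met-2 replicate 1. When every library was centred on its own median over these genes, which removes this shift, 306 genes were higher (10.4%) and 425 lower (14.4%). The same 124 higher and 425 of the lower genes were called in all of these fits, with replicate 1, without it and centred. A difference of at least 1 log2 unit was reached by 56 higher and 338 lower calls, or by 49 and 225 without met-2 replicate 1. In 171 genes (5.8%) all 3 lin-65 libraries lay above all 3 met-2 libraries, and in 1389 genes (47.1%) they lay below.

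**Figure D1:**
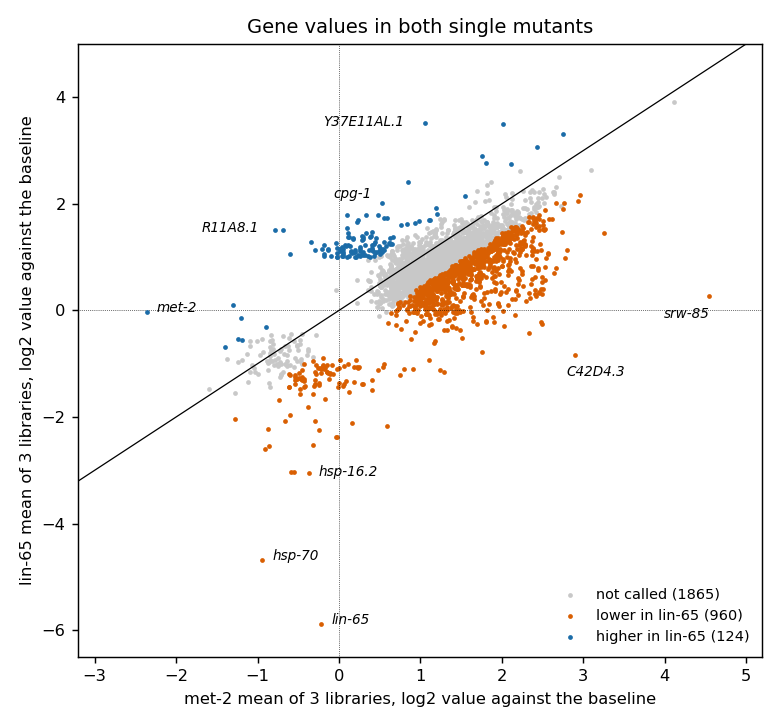
Mean log2 level in lin-65 embryos (vertical axis) against the mean log2 level in met-2 embryos (horizontal axis), 3 libraries each, 1 point per gene, for 2949 genes, with calls coloured. The 960 lower calls lie below the line of equality, mostly at positive levels in both mutants, and the 124 higher calls lie above it.

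The authors' selection bears on these counts. Every gene of a mutant's table had a mean level of at least 1 in absolute size in that mutant, so a gene listed through lin-65 alone or met-2 alone tended to differ between them. Among the 165 genes held by the lin-65 table alone, 91 were called higher, and among the 127 held by the met-2 table alone, 78 were called lower. The double mutant table was chosen on libraries outside the comparison. Of its 2638 genes, 30 were called higher (1.14%) and 840 lower (31.8%). That table holds 89.5% of all genes, so its shares are close to the whole by construction. Of the 716 genes held by it alone, 84 were called lower (11.7%) and 1 higher. Of the 1133 genes that the met-2 table also held and the lin-65 table did not, 601 were lower (53%). The part of the selection in these shares was not tested.

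In most of the lower calls both mutants lay above baseline. Of the 960, 688 had a level above 0 in all 6 libraries. Over all 960 the medians were 1.48 in met-2 and 0.57 in lin-65. The 124 higher genes had medians of 0.28 in met-2 and 1.2 in lin-65.

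Apart from lin-65, srw-85 on chromosome V had the largest difference. It belongs to a chemoreceptor family. Its level was 4.71, 4.53 and 4.39 in met-2 and 0.41, 0.35 and 0.04 in lin-65. All met-2 libraries were far above all lin-65 libraries, and the double mutant, at 0.74 ± 0.45, sat near lin-65. The difference was -4.28 ± 0.22 (SE), or 19.4-fold (adjusted p = 1.1e-13), and -4.19 without met-2 replicate 1.

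C42D4.3 on chromosome IV, a gene without a descriptive name, lay on opposite sides of the baseline. Its level was 3.34, 2.72 and 2.63 in met-2 and -0.90, -0.56 and -1.04 in lin-65. The groups did not overlap, and the double mutant followed met-2 at 2.45 ± 0.18. The difference was -3.73 ± 0.24 (adjusted p = 7.78e-12), or -3.51 without met-2 replicate 1.

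The gene cnc-4 encodes a caenacin, a small antimicrobial peptide. Its level was 2.79, 2.13 and 2.08 in met-2 and -0.42, -0.37 and -0.50 in lin-65. It was above baseline in every met-2 library and below it in every lin-65 library, a 6.79-fold difference (adjusted p = 2.73e-09). The ground-like gene grl-4, of the hedgehog-related family, had 2.99, 2.13 and 2.32 in met-2 and -0.51, -0.10 and -0.05 in lin-65. Its difference was -2.70 (adjusted p = 7.15e-09), and again no libraries overlapped. Both genes were above baseline in the double mutant, where cnc-4 averaged 2.35 and grl-4 2.01.

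On the other side, Y37E11AL.1 on chromosome IV was above baseline in both mutants and higher in lin-65. Its level was 0.99, 1.15 and 1.02 in met-2 and 3.63, 3.38 and 3.55 in lin-65. The difference was 2.47 ± 0.21, or 5.53-fold (adjusted p = 5.63e-09), and the double mutant matched lin-65 at 3.58 ± 0.14. The chemoreceptor gene sri-62 had the same order, with 2.29, 1.92 and 1.82 in met-2 and 3.52, 3.61 and 3.39 in lin-65 (adjusted p = 1e-05).

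The gene wht-4 encodes an ABC transporter of the white family. Its level was -0.85, -1.0 and -0.22 in met-2 and 1.46, 1.52 and 1.53 in lin-65. It lay below baseline in every met-2 library and above it in every lin-65 library, with a difference of 2.20 (adjusted p = 1.01e-07). R11A8.1 showed the same contrast, with -0.41, -1.14 and -0.82 in met-2 and 1.45, 1.59 and 1.52 in lin-65 (adjusted p = 3.36e-08). Here the double mutant, at -0.61 ± 0.22, was like met-2.

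Some genes that were higher in lin-65 had a low level in the double mutant. C27C7.1 had 0.86, 0.83 and 0.85 in met-2, 2.52, 2.26 and 2.44 in lin-65, and a mean of 0.68 in the double mutant. The F-box gene fbxa-107, of a family of adaptors for ubiquitin ligases, had -0.02, 0.39 and 0.33 in met-2 and 1.64, 1.92 and 1.53 in lin-65. The double mutant averaged -0.57 ± 0.11, with each library below every library of either single mutant. The adjusted p for lin-65 against met-2 was 3.63e-06 for C27C7.1 and 1.54e-05 for fbxa-107.

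**Figure D2:**
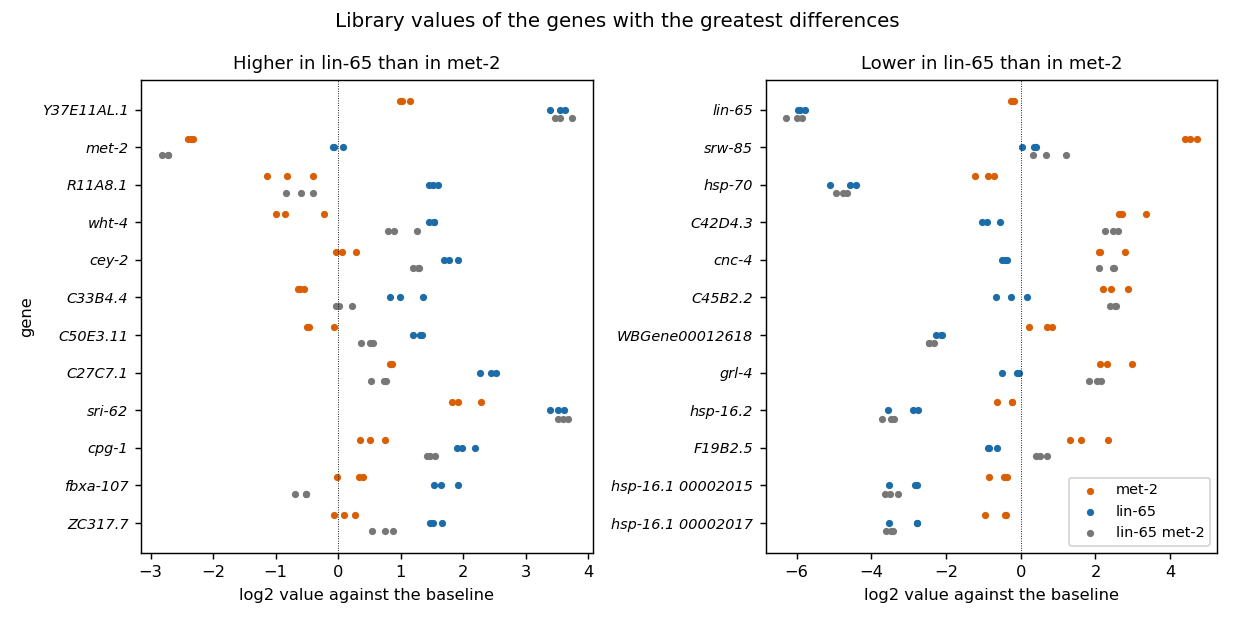
Log2 level (horizontal axis) in each of the 9 mutant libraries for the genes with the largest called differences in each direction, 1 row per gene and 1 point per library. The met-2 and lin-65 points do not overlap in any row, and the double mutant sits near lin-65 for srw-85 and hsp-70 and near met-2 for C42D4.3 and R11A8.1.

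Of the lists, the largest median difference was in the heat shock genes that are normally near silent and induced by protein damage. All 9 listed genes were lower in lin-65 than in met-2, with and without met-2 replicate 1 and after centring, and their median difference was -2.34. Against this, 32.6% of all genes were called lower, with a median difference of -0.42. These 9 genes were in the lin-65 and double mutant tables and not in the met-2 table.

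The gene hsp-70 encodes an inducible chaperone. Its level was -0.88, -1.23 and -0.71 in met-2 and -4.40, -4.56 and -5.10 in lin-65. It was below baseline everywhere but by far more in lin-65, a 13.4-fold difference (adjusted p = 7.78e-12). The small heat shock gene hsp-16.2 had -0.24, -0.64 and -0.24 in met-2 and -2.74, -2.89 and -3.54 in lin-65, a 6.44-fold difference (adjusted p = 6.39e-09). The group median per library ran from -0.85 to -0.36 in met-2, from -3.05 to -2.36 in lin-65 and from -3.50 to -3.17 in the double mutant. The double mutant was nearer lin-65 than met-2 for 9 of 9 genes, against 516 of all 2949 genes. Since all 9 were held by the lin-65 and double mutant tables and not by the met-2 table, this count is not support for a likeness. The part of the selection in it was not tested.

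Several of these genes are near-identical copies, among them the pairs named hsp-16.48 and hsp-16.1, and F44E5.5 with F44E5.4. How reads were shared among such copies is not known, so their single values are uncertain. Among 7 other small heat shock and chaperone genes, 2 were lower in lin-65 and 1 was higher. The lower genes were dnj-13, a co-chaperone, at -1.02, and hsp-12.3 at -1.04. The higher gene was sip-1, a small heat shock gene of the germ line and embryo, at 1.27. It was held by the lin-65 table alone, and 55.2% of the genes so held were called higher.

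Oocyte and eggshell genes were higher in lin-65. Of 30 listed genes, 14 were measured and all 14 were called higher, with a median difference of 1.14, or 1.09 without met-2 replicate 1. All 14 were in the lin-65 table and none in the met-2 table, and 9 were held by the lin-65 table alone. Those genes had to lie at least 1 log2 unit from baseline in lin-65 to be measured, so their count is not support for a direction. The 5 that the double mutant table also held, namely cpg-1, cey-2, cbd-1, cpg-2 and lin-41, were all higher, where 1.14% of that table's genes were. These 5 were in the lin-65 table too and not in the met-2 table. Of the 127 genes held in that way, 16 were higher and 53 lower. The part of this selection in the count of 5 was not tested.

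The gene cpg-1 encodes a chondroitin proteoglycan of the eggshell. Its level was 0.34, 0.74 and 0.50 in met-2 and 2.19, 1.90 and 1.97 in lin-65. Every lin-65 library exceeded every met-2 library, by 1.49 ± 0.22 on average (adjusted p = 9.89e-06), with the double mutant between them at 1.48 ± 0.06. For cey-2, a Y-box RNA-binding protein gene of the germ line, the values were -0.04, 0.28 and 0.06 in met-2 and 1.91, 1.68 and 1.77 in lin-65 (adjusted p = 1.46e-06). The yolk receptor gene rme-2 had 0.10, 0.45 and 0.14 in met-2 and 1.86, 1.64 and 1.46 in lin-65 (adjusted p = 1.89e-05).

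Few other germ line genes were measured. Of 4 measured meiosis genes, 3 were higher in lin-65, namely him-3, a chromosome axis component, at 1.16, syp-2, a synaptonemal complex component, at 1.14, and him-5, needed for crossovers on the X, at 0.81. All 4 were held by the lin-65 table alone, so the same limit applies as for the oocyte genes. Of 5 germ granule and small RNA genes, 2 were higher, the P granule gene pgl-3 at 1.11 and the nuclear Argonaute gene hrde-1 at 0.91. Both of these were held by the lin-65 table alone, and none of the 3 members that the double mutant table held was called higher. Of 5 sperm genes, 3 were lower, or 2 without met-2 replicate 1, led by spe-6, a kinase of sperm development, at -1.11. The library medians of the oocyte genes ran from 0.06 to 0.39 in met-2, from 1.24 to 1.46 in lin-65 and from 0.86 to 0.91 in the double mutant. Oocyte genes are markers of maternal RNA and of the germ line, and their part in the differences of the tissue genes below was not tested.

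Most measured genes of the pharynx, body wall muscle and intestine lists were lower in lin-65. All measured members of these 3 lists were in the double mutant table, where 31.8% of genes were called lower. Most were also in the met-2 table, 9 of 11 for pharynx, 23 of 25 for muscle and 15 of 18 for intestine. The lin-65 table held 0, 7 and 1 of them. Of the 1133 genes held by the met-2 and double mutant tables but not by the lin-65 table, 53% were lower. The part of this selection in the counts was not tested. Of 15 pharynx genes, 11 were measured and 10 were lower, with a median difference of -1.10. Of 35 body wall muscle genes, 25 were measured and 17 were lower, with a median of -0.71. Of 32 intestine genes, 18 were measured and 15 were lower, with a median of -0.91. None was higher.

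Without met-2 replicate 1, the lower counts were 9 for pharynx, 15 for muscle and 10 for intestine. After centring they were 9, 8 and 9. Per library, the pharynx median was 2.45, 1.62 and 1.58 in met-2, 0.52, 0.89 and 0.72 in lin-65, and 2.19 to 2.40 in the double mutant. The first met-2 library was the highest of the 6 compared, but the other met-2 libraries also stayed above all lin-65 libraries. The muscle median was 2.04, 1.48 and 1.57 in met-2 and 0.81, 1.16 and 0.94 in lin-65.

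The pharyngeal myosin gene myo-2 had levels of 2.78, 1.77 and 2.06 in met-2 and 0.24, 0.86 and 0.72 in lin-65. It was above baseline in every library and 3.02-fold higher in met-2 (adjusted p = 2.75e-05). The body wall myosin gene unc-54 had 2.49, 1.76 and 2.01 in met-2 and 0.36, 1.28 and 0.96 in lin-65 (adjusted p = 0.000558). The troponin T gene tnt-2 was at 1.79, 1.57 and 1.51 in met-2, against -0.01, -0.19 and 0.10 in lin-65 (adjusted p = 1.97e-06). In the intestine, the aspartyl protease gene asp-6 averaged 2.26 in met-2 and 0.47 in lin-65, a difference of -1.79 (adjusted p = 2.39e-06).

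Neuronal and ciliary genes differed less. Of 20 measured neuronal genes of 36 listed, 11 were lower (55%), against 32.6% of all genes, with a median of -0.64. The count was 7 without met-2 replicate 1 and 2 after centring. The largest difference was at cex-1, a calcium-binding protein gene, at -1.16. The synaptotagmin gene snt-1 was lower by the same test at -0.95 (adjusted p = 0.0101), but not without met-2 replicate 1 (adjusted p = 0.0521). Of 33 cilium genes, 4 were lower, 2 without met-2 replicate 1 and 0 after centring, when 4 were higher and the median difference turned from -0.23 to 0.15. Of 11 epidermal genes other than collagens, none was lower and egg-6 was higher at 0.69, and the list median was -0.40. The lin-65 table alone held egg-6, so the limit given for the oocyte genes applies to it.

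**Figure D3:**
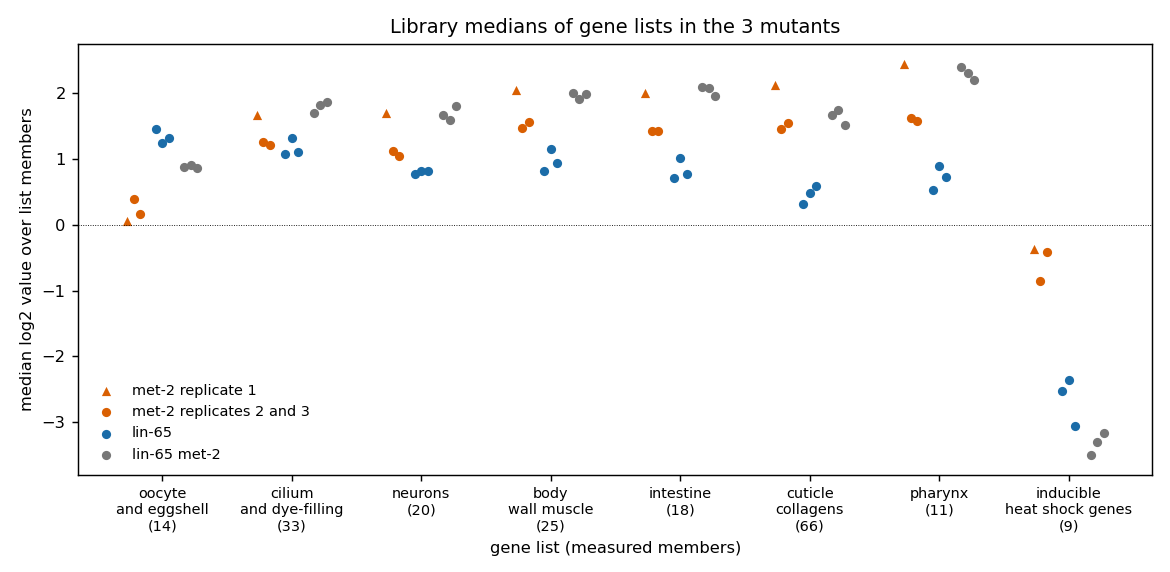
Median log2 level (vertical axis) over the measured genes of each list in each of the 9 libraries, 1 point per library, coloured by strain. The lin-65 points lie above the met-2 points for oocyte genes and below them for heat shock, muscle, pharynx, intestine and collagen genes, where met-2 replicate 1 is the highest met-2 point.

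Cuticle collagens were lower in lin-65. Of 66 cuticle collagens, 45 were lower in lin-65 and none higher, against 32.6% lower among all genes. Their median difference was -1.07. Without met-2 replicate 1 the count was 43, and after centring it was 37 lower and 1 higher. The collagen median was 2.12, 1.45 and 1.54 in the met-2 libraries and 0.32, 0.48 and 0.59 in the lin-65 libraries, without overlap. The met-2 table held 53 of the 66 collagens, and only 8 were in the lin-65 table. Of the 1133 genes held by the met-2 and double mutant tables but not by the lin-65 table, 53% were lower. The part of this selection in the collagen counts was not tested.

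The collagens were not alike. After their values were seen they were divided by name. Of 56 col genes, 44 were lower, with a median of -1.30, and 27 differed by -1.5 or more in size. Of 10 collagens named dpy, rol, sqt or bli for their body shape or blister mutants, 1 was lower, with a median of -0.36 that centring moved to 0.02. Within the first set, col-12 had 2.51, 1.85 and 2.12 in met-2 and -0.18, -0.06 and -0.03 in lin-65. It was above baseline in every met-2 library and just below it in every lin-65 library, a 4.75-fold difference (adjusted p = 3.85e-08).

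Cuticlin, molting and hedgehog-related genes were called near the rate of all genes, of which 32.6% were lower. Of 40 cuticlin and molting genes, 14 were lower (35%), or 10 lower and 1 higher without met-2 replicate 1, and centring left 6 lower and 2 higher with a median of -0.02. Their largest differences were at ram-2 at -2.14 and the astacin protease genes nas-36 at -1.89 and nas-30 at -1.82. Of 43 hedgehog-related and patched-related genes, 15 were lower (34.9%), or 12 without met-2 replicate 1 and 10 after centring, with grl-21 at -2.13 next after grl-4. Of 22 abu and pqn genes, which encode proteins rich in glutamine and asparagine, 17 were lower, with a median of -0.89 and pqn-71 at -1.85. The count was 13 without met-2 replicate 1 and 12 after centring. Of 22 transthyretin-like genes, 13 were lower, and ttr-15 was the most different at -2.33. With met-2 replicate 1 left out, 7 were lower and 1 higher, and after centring 4 were lower and 1 higher.

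Genes of secreted defence and digestion proteins were also lower. Among all genes, 32.6% were called lower. Of 31 such effectors, 20 were lower, with a median of -0.86, and next after cnc-4 came dod-19 at -2.04. The count was 15 lower and 1 higher, and the median -0.46, without met-2 replicate 1. Of 30 C-type lectins, 17 were lower, also without met-2 replicate 1, with clec-66 at -1.5. Of 29 neuropeptide and insulin genes, 16 were lower, or 15 without met-2 replicate 1. Their largest difference was at nlp-29, which encodes an antimicrobial peptide of the epidermis, at -2.01. Of 34 detoxification enzymes, 10 were lower (29.4%), below the share of all genes, and without met-2 replicate 1, 7 were lower and 2 higher.

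Receptors and regulators differed near the background rate or below it. Of 48 nuclear hormone receptor genes, 7 were lower and 1 higher. Without met-2 replicate 1, 3 were lower and 2 higher, and after centring 3 were lower and 9 higher. The lower ones included nhr-247 at -1.84 and daf-12, the receptor that controls dauer formation, at -1.08. Of 18 homeobox and helix-loop-helix genes, only ceh-18, a POU homeobox gene, was called. Its mean was 2.05 in met-2 and 0.35 in lin-65, with 1.97 for the double mutant (adjusted p = 1.93e-06). Of 38 chemoreceptor-named genes, 14 were lower and 3 higher, or 11 and 4 without met-2 replicate 1, and 2 of these names, srap-1 and srlf-34, were caught by spelling alone. Of 89 ion channel genes, 27 were lower and 2 higher. The counts became 13 and 3 without met-2 replicate 1, and after centring 1 was lower and 6 higher.

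Of 28 F-box genes, 4 were higher (14.3%) and 7 lower (25%), and of 22 MATH and BTB genes, 4 were higher (18.2%) and 6 lower (27.3%). Of all genes, 4.2% were higher and 32.6% lower. The lin-65 table alone held 5 of the F-box and 6 of the MATH and BTB genes, and 55.2% of all genes so held were higher. Both groups encode adaptors of ubiquitin ligases in fast-evolving families. The medians of the F-box, MATH and BTB, chemoreceptor, nuclear receptor, homeobox and cilium lists were below 0 as deposited and above 0 after centring, so the direction of these 6 lists depends on the scaling. After centring, 7 F-box genes were higher and 2 lower, and 6 MATH and BTB genes were higher and 2 lower. Neighbouring bath-30, bath-29, lido-14 and bath-27 with F14D2.15 on chromosome II were all higher in lin-65, by 0.63 to 0.93. All 5 were held by the lin-65 table alone and so had to lie at least 1 log2 unit from baseline in lin-65 to be measured. This run, chosen after its values were seen, was 1 of 7 runs of at least 5 neighbouring calls within 20 kb of each other, and the other 6 were lower.

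**Figure D4:**
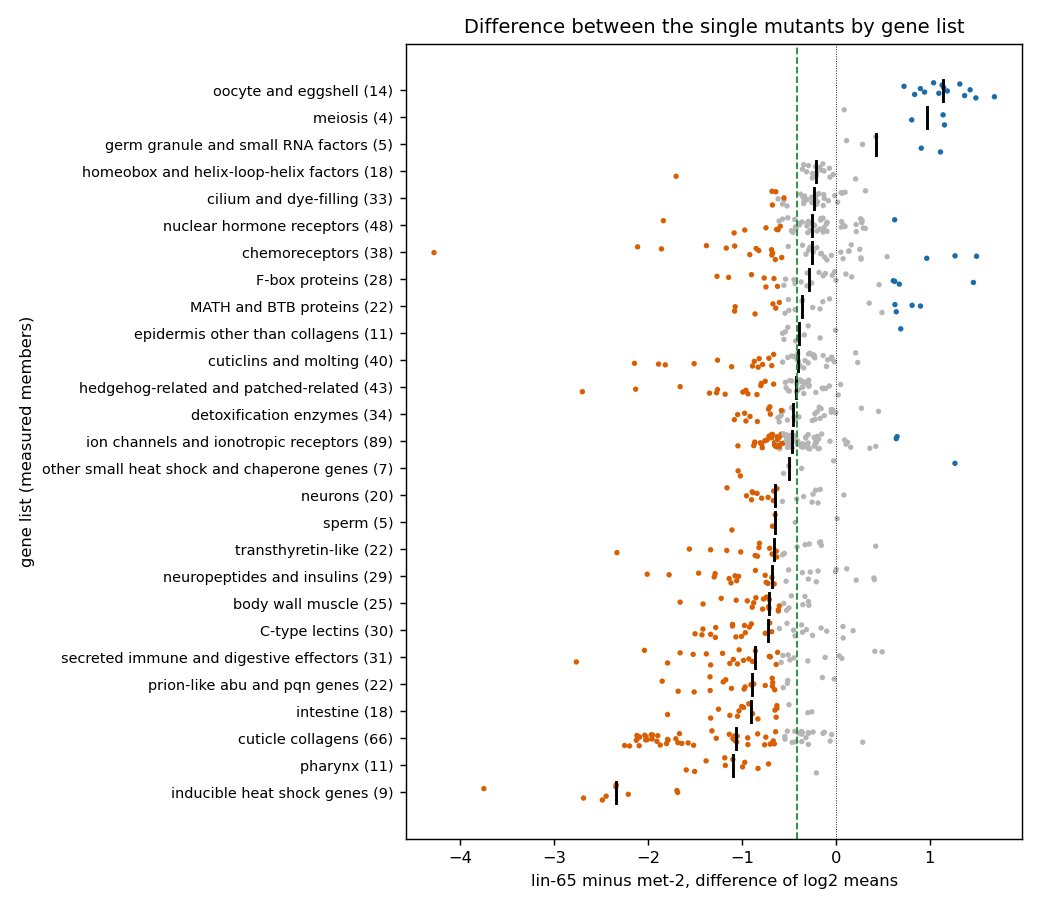
Difference in log2 level, lin-65 minus met-2 (horizontal axis), for every measured gene of each list (rows), 1 point per gene with the list median marked. Heat shock genes lie furthest below 0 with a median of -2.34, oocyte genes lie above 0 with a median of 1.14, and most tissue and cuticle lists lie below the overall median of -0.42.

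Of 26 listed H3K9 methylation and heterochromatin factors, 3 were measured, namely met-2, lin-65 and set-11. The gene set-11 encodes a SET domain protein. Its level was 1.31, 0.66 and 0.53 in met-2 and 1.19, 1.93 and 1.74 in lin-65. The groups overlapped because of met-2 replicate 1, and the difference was 0.78 (adjusted p = 0.0164), or 1.02 without that library (adjusted p = 0.00188). The double mutant averaged 2.45 ± 0.19. Yolk genes, the first zygotic genes, histones and ribosomal proteins had no measured member.

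For few genes could the difference be bounded near 0. The 95% interval of the difference lay within 0.5 log2 units of 0 for 83 genes (2.81%), of which 32 had a mean level of at least 1 in both mutants. Without met-2 replicate 1 it did so for 481 genes (16.3%), and 54 genes were bounded both ways. The count was 0 when any of the other 5 libraries was left out. The gene prde-1, needed for piRNA production, had 1.71, 1.77 and 1.74 in met-2 and 1.80, 1.75 and 1.75 in lin-65. The libraries overlapped and the difference of 0.03 had an interval from -0.41 to 0.46. Other bounded genes with high levels in both mutants were enu-3.2, with an interval from -0.47 to 0.41, and grd-1, a groundhog-like gene, from -0.44 to 0.49.

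The double mutant gave a further reading of the called genes. Over all 2949 genes, it was nearer to met-2 in 2433 and nearer to lin-65 in 516. Among the 1865 genes not called, the numbers were 1541 and 324. Among the 960 lower genes, it was nearer to met-2 in 834 and nearer to lin-65 in 126, so their lean to met-2 was largely that of all genes. Nearer to met-2 mostly meant beyond it, on the side away from lin-65. That held for 2133 of the 2433 among all genes and for 659 of the 834 lower genes. These placements used the met-2 mean with replicate 1 and were not repeated without it. The 834 had medians of 1.54 in met-2 and 0.62 in lin-65, with 1.78 for the double mutant. The 126 had medians of 0.05 in met-2 and -1.10 in lin-65, with -0.95 for the double mutant, so their medians were low in both strains without LIN-65. Among the 124 higher genes the double mutant was nearer to met-2 in 58 and nearer to lin-65 in 66. Only 30 of the 124 were in the double mutant table (24.2%), against 89.5% of all genes. Of the 124, 117 were in the lin-65 table, and 91 were held by it alone and so lay outside the double mutant table by definition. The part of this selection in the share was not tested.

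The called genes were spread over all chromosomes. On the X chromosome 7 of 587 genes were higher (1.19%), against 115 of 2282 autosomal genes (5.04%). The shares of lower genes were 30.8% on X and 32.9% on autosomes, and chromosome V had the highest at 37%. When each chromosome was divided into segments of equal width by distance from its centre, the lower share was 31.3% in the inner, 32.5% in the middle and 34.1% in the outer segments, close to the 32.6% of all genes. The median gene length was 1863.5 bp for higher, 2716 bp for lower and 3167 bp for genes not called. These shares are descriptions, since neighbouring genes are not independent.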

How the data were processed

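Total RNA of early embryos was sequenced in 12 libraries, 3 for each of 4 strains. The tool edgeR and the genome build ce10 are named per the submitters' processing notes. For the aligner, counting, scaling and selection, the method is not given in the sources used here. What the authors deposited are 3 tables of log2 values for 9 mutant libraries, with no N2 column, counts or p-values, so no interval that needs depth is given. Values of a gene held by more than 1 table were identical, and the union of 5552 rows held 2949 genes. The molecule is genomic DNA in the labels, but the design describes RNA.

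The 3 lin-65 and 3 met-2 libraries were compared with limma 3.58.1 in R 4.3.3 over all 2949 genes, with no covariate and Benjamini-Hochberg adjustment at 0.05. No filter or pseudocount was added. The fit was checked on simulated data. Because the tables hold selected genes, counts describe these genes and not the genome, and centring on library medians removes any general difference between strains. Of the genes, 2869 matched Ensembl 115 (WBcel235) by identifier and 80 did not. Names, types, positions and lengths came from that annotation, and no coordinate is printed. Promoters and other sequences were not used here.

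The genes and the 32 lists were chosen with earlier results of these data known. Genes named were the 12 with the largest difference in each direction, called with and without met-2 replicate 1 and not overlapping, up to 4 of each list by size of difference, the mutated genes, and 5 bounded and 5 opposite-sign genes per direction. Further genes named from short lists were chosen after their values were seen. Alternatives left out each library, fitted all 9 libraries, centred the libraries, added a replicate block, array weights or a robust prior, restricted the genes by table, or required 1 log2 unit.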

Additional observations from a re-analysis of the deposited data

Results flagged for a closer look

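In 51 genes every met-2 library lay above 0 and every lin-65 library below 0, and all 51 were called lower in lin-65 by limma. In 11 genes every met-2 library lay below 0 and every lin-65 library above 0, and all 11 were called higher. They stood out because every library of one mutant moved one way and every library of the other the opposite way. Genes chosen for that split cannot overlap between the mutants, so their calls are not further support for a difference. Of all genes, 32.6% were called lower and 4.2% higher. The test was of the difference between the mutants, while the side of the baseline itself was not tested against N2.

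Beside C42D4.3, the clearest genes of the first kind included tatn-1, which encodes tyrosine aminotransferase. Its level was 1.44, 1.10 and 1.17 in met-2 and -1.11, -1.06 and -1.18 in lin-65, a difference of -2.35 (adjusted p = 9.65e-09). The double mutant averaged 0.49, so it lay on the side of met-2. Y94H6A.10 had 1.41, 0.72 and 1.17 in met-2 and -0.93, -0.96 and -0.89 in lin-65, with the double mutant between them at -0.14. WBGene00021577, an identifier absent from the annotation, averaged 1.29 in met-2 and -1.15 in lin-65, with -1.07 for the double mutant.

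Of the second kind, next to R11A8.1 and wht-4, C33B4.4 averaged -0.60 in met-2 and 1.05 in lin-65, C50E3.11 averaged -0.34 and 1.28, and W06D11.3 averaged -0.30 and 1.13. The double mutant lay between the single mutants for all 3 of these genes.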

How the results depend on the processing

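Leaving out each library in turn gave 88 to 151 higher and 575 to 1166 lower genes, with the lower count at 575 without lin-65 replicate 1 and 621 without lin-65 replicate 3. The median difference stayed between -0.51 and -0.26. The count of genes bounded within 0.5 ran from 0 to 481, with 481 reached without met-2 replicate 1. Centring gave 306 higher, 425 lower and 993 bounded genes and a median of -0.0319. Centring with met-2 replicate 1 left out, an alternative chosen after seeing the data, gave 258, 380 and 924 and a median of -0.027. Requiring 1 log2 unit gave 56 higher and 338 lower. Among the double mutant table alone, refitted, 29 were higher, 862 lower and 51 bounded, and among genes of either single mutant's own list 39 were bounded. A fit of all 9 libraries bounded 228 genes and array weights, which gave met-2 replicate 1 a weight of 0.155, bounded 680. Both kinds of call stayed within 1.5 times of the reported count in the settings not named here.

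With the replicate block, 101 genes were higher, 808 lower and 0 bounded. The deviations of same-numbered libraries correlated across genes at -0.21, -0.14 and 0.04, within the range of -0.15 to 0.24 for other numbers or below it, so the numbers were not treated as pairs.

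Of 135 named genes, 118 were called, and 100 of them were called with the same sign under every alternative that held them. Apart from the 5 bounded genes, only uncalled hlh-6, lin-11 and hlh-32 changed sign, to 0.0723, 0.0282 and 0.0415 when centred. With met-2 replicate 1 also left out, hlh-6 was at 0.093. Of the bounded genes, whose differences lay near 0, enu-3.2 went from -0.032 to 0.352 when centred. Without met-2 replicate 1, grd-1 went from 0.024 to -0.035 and Y105C5B.20 from 0.041 to -0.003. The difference of crp-1, at 0.047, reached -0.032 in 1 of the alternatives. The cause was not tested. With no counts deposited, the reads behind each gene are unknown, and 3 libraries a strain limit the precision to a median SE of 0.229 log2 units.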

Other observations

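Some families that the lists did not hold apart moved in 1 direction. They were grouped by symbol after the values were seen, so their counts are descriptions beside the 32.6% of all genes called lower. All 8 measured lec genes, which encode galectins, were lower in lin-65, with a median difference of -0.88, and 7 were lower without met-2 replicate 1. Of 10 nas genes, which encode astacin proteases, 8 were lower, with a median of -0.86. Of 14 nlp neuropeptide genes, 10 were lower, against 4 of 9 flp neuropeptide genes. Of 6 measured insulin genes, 2 were lower as deposited, while centring gave 3 higher and 2 lower.

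The longest of the runs of neighbouring calls lay on chromosome V and held 7 genes lower in lin-65, among them the chemoreceptor-related genes srr-6 at -0.92 and srr-4 at -0.68 and the kinase gene mlk-1 at -0.65. Of these 7, srr-4, cpt-4 and Y58A7A.3 were not called without met-2 replicate 1 (adjusted p = 0.0765, 0.0513 and 0.282 in limma). Another run on chromosome V held the hsp-16.1 and hsp-16.48 copies with pqn-31 at -0.68 and F21C10.7 at -0.60, although neither of these last genes was called without met-2 replicate 1 (adjusted p = 0.194 and 0.0768 in limma).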
